A study of Homo sapiens with 6 samples.

Results

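The mitochondrial ribosomal protein (MRP) genes were examined by RNA sequencing of U87-MG, an established human glioblastoma cell line. They were taken by name, as the rows of the deposited gene table whose symbol is MRPL or MRPS followed by a number and, in some, by A, B or C. This gave 78 of the 61806 genes of the table, and the naming rule itself uses no measured value. Of these genes, 51 encode proteins of the large subunit of the mitochondrial ribosome and 26 encode proteins of the small subunit. The last of them, MRPS36, bears the name but encodes a component of the 2-oxoglutarate dehydrogenase complex. The libraries were 3 of the negative control (NC), whose genotype is given as wildtype, and 3 labelled GRIK1 siRNA, whose genotype is given as GRIK1 knockdown. Total RNA was sequenced in all of them, and no time after transfection and no further agent is given in the labels. The sample titles name an siRNA and the series text names an shRNA, and the labels do not say whether the numbers 1, 2 and 3 are replicates or siRNA sequences. They were used as replicates. Nothing says that the libraries came from separate cultures, so the p-values measure the spread between these libraries, which may be technical. The targeted gene GRIK1, a subunit of kainate-type glutamate receptors, was counted 18, 9 and 8 times in NC libraries 1, 2 and 3, whereas its counts were 15, 20 and 20 under the GRIK1 siRNA label. It was not lower in the libraries labelled GRIK1 siRNA, so that label names the libraries below and not a measured loss of GRIK1. At 0.13 to 0.38 FPKM, GRIK1 lay below the expression filter of 0.5 FPKM and was not tested. Counts this low cannot settle whether GRIK1 was reduced.

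The mitochondrial ribosome translates the few mRNAs of the mitochondrial genome, all of which encode subunits of the respiratory chain and of ATP synthase. Its rRNAs are transcribed inside the organelle, whereas its proteins are encoded in the nucleus, made in the cytosol and imported. Some of these proteins have counterparts in the bacterial ribosome and others occur only in mitochondria. The nuclear genes are scattered over the genome, and factors such as NRF1, the ETS-family factor GABP and YY1 are known to act at promoters of nuclear genes for mitochondrial proteins. Here the 78 genes lay on 21 chromosomes, with at most 8 on any of them (chromosomes 1, 2 and 17).

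Total counts lay between 11099909 and 14006968 per library. NC library 3 stood apart from the others. Its log2 CPM (counts scaled to library size) correlated at 0.955 to 0.970 with those of the other libraries, whereas all other pairs reached 0.984 to 0.995. The common dispersion of edgeR is the squared coefficient of variation between libraries of a group beyond counting noise, shared over genes. It was 0.0391 over the 6 libraries, but 0.00298 when NC library 3 was left out. The glioma line markers VIM and CD44 were abundant, with at least 59785 and 7023 counts in each library, whereas SOX2 had at most 4, GFAP at most 39 and NES at most 51. PTPRC and PECAM1, which mark leukocytes and endothelial cells, had at most 5 counts in any library, CD14 at most 9, MBP at most 18, RBFOX3 at most 44 and EPCAM at most 64. For these reasons the comparison of the members between the groups is given with all 6 libraries and without NC library 3. Levels are means over all 6 libraries, and neighbouring genes are given without NC library 3.

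The promoters of 4 members are shown, as examples of the genes called in either direction below: MRPL22 and MRPL47 were higher and MRPL36 and MRPS5 lower in the libraries labelled GRIK1 siRNA once NC library 3 was left out. Each sequence runs 5′ to 3′ on the strand of the gene from 250 bases before to 50 bases after the RefSeq transcription start (GRCh38.p14), and capitals mark matches to the NRF1, ETS or YY1 motif.
MRPL22 (chr5:154940823-154941122, plus strand): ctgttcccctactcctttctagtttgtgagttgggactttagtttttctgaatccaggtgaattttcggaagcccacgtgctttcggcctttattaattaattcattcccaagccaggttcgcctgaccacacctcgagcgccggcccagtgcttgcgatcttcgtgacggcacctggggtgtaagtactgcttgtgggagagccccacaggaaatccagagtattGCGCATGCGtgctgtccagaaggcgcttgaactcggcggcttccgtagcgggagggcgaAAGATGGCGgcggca
MRPL47 (chr3:179604589-179604888, minus strand): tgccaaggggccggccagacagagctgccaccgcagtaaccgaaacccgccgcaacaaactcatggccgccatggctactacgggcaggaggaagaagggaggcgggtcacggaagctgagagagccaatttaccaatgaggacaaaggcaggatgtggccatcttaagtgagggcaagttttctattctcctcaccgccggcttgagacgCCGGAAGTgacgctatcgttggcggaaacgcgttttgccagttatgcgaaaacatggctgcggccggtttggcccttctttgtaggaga
MRPL36 (chr5:1799788-1800087, minus strand): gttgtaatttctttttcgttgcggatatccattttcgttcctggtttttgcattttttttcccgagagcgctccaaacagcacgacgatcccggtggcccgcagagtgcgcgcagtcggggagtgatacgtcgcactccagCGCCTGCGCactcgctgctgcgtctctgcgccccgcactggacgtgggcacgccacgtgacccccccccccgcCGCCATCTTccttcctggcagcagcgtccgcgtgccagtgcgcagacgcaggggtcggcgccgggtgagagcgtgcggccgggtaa
MRPS5 (chr2:95121759-95122058, minus strand): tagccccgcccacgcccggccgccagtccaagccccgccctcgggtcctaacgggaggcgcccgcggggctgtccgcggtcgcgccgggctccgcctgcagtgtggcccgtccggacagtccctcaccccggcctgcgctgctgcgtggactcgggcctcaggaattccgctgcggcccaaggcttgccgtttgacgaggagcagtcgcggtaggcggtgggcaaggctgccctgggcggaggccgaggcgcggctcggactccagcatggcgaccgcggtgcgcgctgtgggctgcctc
With the start base counted as 1, MRPL22 held an NRF1 motif at -24 and a YY1 motif at 36, MRPL47 an ETS motif at -39, and MRPL36 an NRF1 motif at -109 and a YY1 motif at -36. None of the 3 motifs was found in the MRPS5 window, which was the richest of the 4 in G and C (75.7% against 55% in MRPL22).

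RefSeq promoters were matched for 70 of the 78 genes, MRPS36 through its synonym KGD4. The motif AAGATGGCG of YY1 occurred on either strand in 13 of them (18.6%), against 3.56% of the 14365 promoters of tested genes and 1.75% of all 35116 promoters of the same length. The NRF1 motif GCGCANGCG occurred in 13 (18.6%), against 13% and 7.52%. The ETS motif CCGGAAGT occurred in 11 (15.7%), against 7.71% and 4.14%. GGGCGG, which SP1 binds, occurred in 43 (61.4%), against 65.7% and 45%, and TATAAA in 3 (4.29%), against 6.47% and 11.5%. None of these motifs contains another. Of the genes called higher without NC library 3, 7 had a promoter in the table, and the NRF1 motif was in 2, the ETS motif in 2 and the YY1 motif in 1 of these. Of those called lower, 12 had a promoter, with the NRF1 motif in 4, the ETS motif in 0 and the YY1 motif in 2. These matches describe letters in the windows and not bound sites, and with so few promoters the shares of the called genes were not compared further.

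MRP transcripts were of middling to high abundance. The level was taken per length, as the deposited FPKM (counts scaled to exonic size and to the total count). The median member had a mean of 12.7 FPKM over the 6 libraries, which was at percentile 79.7 of the tested genes, whose median was 3.86 FPKM. The middle of the range, from the lower to the upper quartile, ran from 8.03 to 21.2 FPKM, and the median was 14.5 FPKM for the large subunit and 11.4 FPKM for the small subunit. The highest means were those of MRPL41 (85.8 FPKM, 66.7 to 108.44 over the libraries), MRPL51 (71.3, 61.92 to 104.93), MRPL18 (58.5, 51.21 to 63.64), MRPL3 (49.3, 40.63 to 69.97) and MRPS35 (48, 40.89 to 61.29). The ranges of neighbours in this order overlapped in each case. Within libraries, MRPL41 lay above MRPL51 in all 6, whereas the order within each of the other neighbouring pairs changed between libraries. The lowest library of MRPL41 lay above the highest of MRPL18 and of MRPS35, and the lowest of MRPL51 lay above the highest of MRPS35. The lowest means were those of MRPL53 (0.5 FPKM), MRPL46 (1.24 FPKM, 0.91 to 1.86) and MRPS5 (1.63 FPKM, 1.05 to 2.29).

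This order depended on the length used. The exonic sizes in the table ran from 582 to 19524 bases with a median of 2544, whereas the principal transcripts of GENCODE 29 had a median of 1458 bases. On CPM per kilobase of the principal transcript, MRPS15 (82.5) led, followed by MRPL18 (82.1), MRPL51 (80.2) and MRPL3 (78.5), and MRPL41 moved from rank 1 to rank 18. MRPS22, with an exonic size of 16385 bases against a principal transcript of 1547, moved from rank 73 to rank 27, and MRPS27 from 69 to 30. MRPL53 was last on both scales. In MRPL41 and MRPL53 the exonic sizes (582 and 685 bases) were smaller than the principal transcripts (1262 and 1162 bases). Their counts may thus not cover the whole principal transcript, and their values on that scale may be too low. Across the 78 genes, which are not independent replicates and share the libraries, the scales correlated with a Spearman coefficient of 0.73. Without MRPL53 the highest member was 69 times the lowest by FPKM and 23.5 times by the principal transcript.

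**Figure D1:**
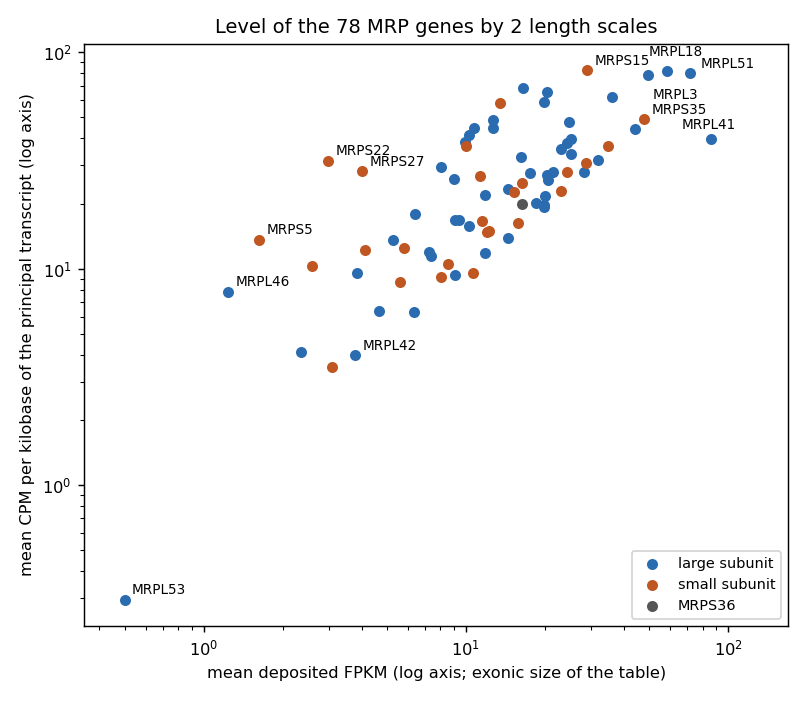
Level of the 78 MRP genes as the mean deposited FPKM (x axis, log scale) and as mean CPM per kilobase of the principal GENCODE 29 transcript (y axis, log scale), each over 6 libraries; points are genes coloured by subunit. MRPS22, MRPS27 and MRPS5 lie above the main cloud and have exonic sizes well above their principal transcripts, and MRPL53 is last on both axes.

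MRPL53 was hardly detected. Its counts were 1, 3 and 4 in the NC group but 4, 8 and 6 under the siRNA label, and 45.2% of its exonic bases are shared with CCDC142 on the same strand in GENCODE 29. Per total count, the ratio of 18 to 8 summed counts was 2.13 (exact 95% interval 0.882 to 5.67, counting error only), which includes 1. It passed the expression filter at exactly 0.5 FPKM, and its fitted fold changes are left out of the ranges below because they depend on the prior count of the fit.

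With all 6 libraries, no MRP gene passed the test. An adjusted p under 0.05 was reached by 0 of 78 members in either direction, against 1.61% of the 15870 tested genes in the higher and 1.48% in the lower direction (edgeR quasi-likelihood test, Benjamini-Hochberg adjustment over all tested genes). Of the members, 16 had an unadjusted p under 0.05, and 25.1% of all tested genes did. DESeq2 called 1 member, MRPS36, as lower, and 1684 of the 15870 tested genes in either direction. The fitted log2 fold change, libraries labelled GRIK1 siRNA against NC, was below 0 in 66 members and above 0 in 12, with a median of -0.32, whereas the median of all tested genes was -0.02 and 51.4% of them were below 0. It ran from -0.87 in MRPS28 to 0.22 in MRPL2 over the 77 members other than MRPL53. In bulk RNA, fewer cells of a kind and less RNA per cell cannot be told apart.

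The lowest fitted values were spread over both subunits. MRPS28, a small-subunit protein, had 9.18, 9.25 and 23.6 CPM in NC libraries 1, 2 and 3 and 7.93, 7.72 and 7.41 CPM in the libraries labelled GRIK1 siRNA (log2 fold change -0.87, SE 0.38, edgeR adjusted p = 0.2). MRPL30 had 36.4, 40.8 and 92.2 CPM against 34.4, 33 and 31 CPM (-0.78, SE 0.34, adjusted p = 0.201). In both genes the groups did not overlap, but the log2 ratio of NC library 3 to the mean of NC libraries 1 and 2 was 1.35 and 1.25. MRPS36 came nearest to the threshold, with 25.6, 28.3 and 46.3 CPM against 18.4, 21.5 and 16.7 CPM (-0.83, SE 0.24, adjusted p = 0.102). MRPL15 and MRPL33, both with bacterial counterparts, had log2 fold changes of -0.76 (SE 0.30) and -0.74 (SE 0.29) with the same pattern, at 81.6 and 59.6 CPM in NC library 3 and at most 41.3 and 29 CPM in the other NC libraries. At the other end MRPL2 had 9.8, 10.7 and 7.64 CPM against 12.6, 9.8 and 10.2 CPM (0.22, SE 0.19, adjusted p = 0.492). MRPL38, MRPL22 and MRPL55 followed with 0.13 (SE 0.20), 0.12 (SE 0.18) and 0.12 (SE 0.14). Exonic bases shared with another gene on the same strand make the counts of MRPL38 (37.5%), MRPS28 (35.8%), MRPL33 (21.1%) and MRPL30 (19.5%) uncertain.

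The groups did not overlap, with every siRNA library below every NC library, in 25 of the 78 members (32.1%), against 19% of all tested genes. The reverse, every siRNA library above, was seen in 0 members and in 19.4% of all tested genes. These counts move with NC library 3, which was the highest of the 6 libraries in 70 members (89.7%), against 35.5% of all tested genes, and the lowest in 4 (5.13%), against 35.8%. A member in which NC library 3 is the highest cannot have every siRNA library above it.

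The level in NC library 3 was therefore described by itself. Relative to the mean of NC libraries 1 and 2, the log2 ratio of NC library 3 had a median of 0.72 over the members, whereas the median of all tested genes was -0.04. It was above 0 in 73 members and above 1, a doubling, in 12. MRPS28 (1.35), MRPL45 (1.33), MRPL13 (1.27), MRPL30 (1.25), MRPS23 (1.24) and MRPS7 (1.23) had the highest ratios. The exceptions were few. MRPS5 (-0.89), MRPS25 (-0.76), MRPL38 (-0.45), MRPL2 (-0.42) and MRPS31 (-0.08) had ratios below 0, and MRPL28 was level at 0.03. The ratio had no rank relation with exonic size or principal transcript length across the members (Spearman coefficient 0.00 with the latter). By comparison, NC library 1 against NC library 2 gave a median of -0.08 with 0 members above 1. The cause of the high values in NC library 3 was not tested.

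**Figure D2:**
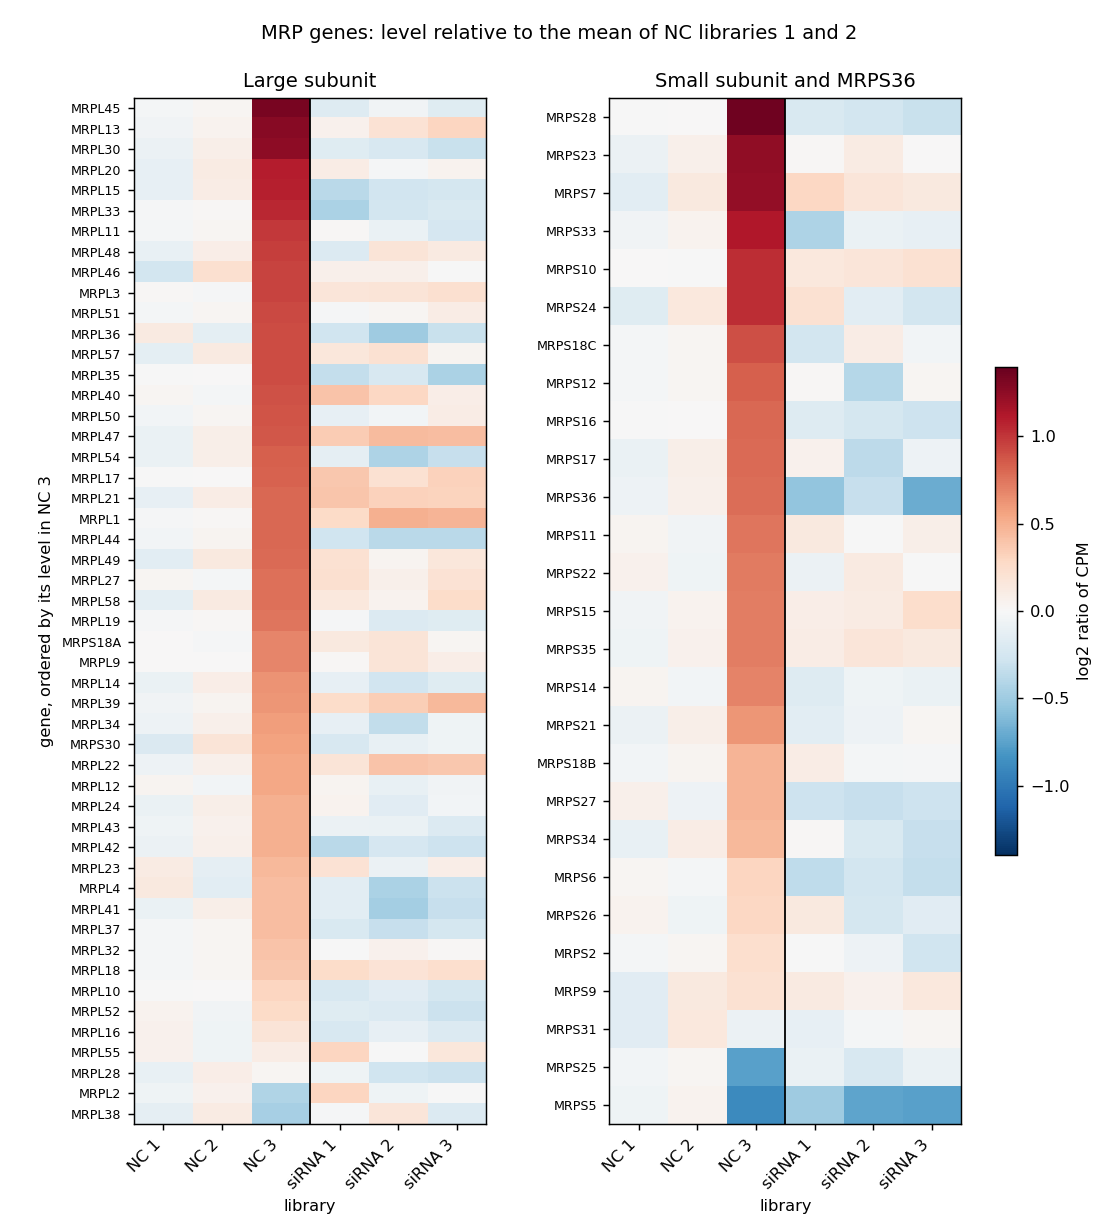
Level of each MRP gene other than MRPL53 in the 6 libraries, as the log2 ratio of its CPM to the mean of NC libraries 1 and 2 (colour), with genes in rows ordered by NC 3 and libraries in columns, large subunit on the left, small subunit and MRPS36 on the right. NC 3 is the darkest column for most genes, with MRPS28 and MRPL45 at the top, and MRPS5 and MRPS25 are the genes with the lowest ratios there.

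Summed over the members, the levels were 2794, 2934 and 4642 CPM in NC libraries 1, 2 and 3 and 2805, 2769 and 2787 CPM in the libraries labelled GRIK1 siRNA. The sums of the siRNA libraries lay between 2769 and 2805 CPM, near NC library 1, and that of NC library 3 stood alone. As a share of all counts, members took 0.412% in NC library 3 and 0.283% to 0.294% in the other 5 libraries. Both subunits shared this pattern, with 0.267% against 0.179% to 0.187% for the large and 0.141% against 0.0984% to 0.104% for the small subunit.

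Without NC library 3, members moved in both directions. An adjusted p under 0.05 was reached by 23 of the 78 members (29.5%), against 35.2% of all tested genes. The 8 members that rose made up 10.3% of the members, against 16.9% of the tested genes called higher, and the 15 that fell made up 19.2%, against 18.3% called lower. These counts were not stable to the loss of a further NC library. Leaving out NC library 1 or 2 as well left 1 NC library, whose spread was assumed to be that of the other group. Fewer members and fewer of all tested genes were then called. The median log2 fold change of the members was -0.12 without NC library 1 as well and -0.00066 without NC library 2 as well. All 23 called members kept their direction. In the fit that left out NC library 3 only, an unadjusted p under 0.05 was reached by 31 members and by 43.5% of all tested genes. The shares of members were thus near or below those of the tested genes in each direction. The median log2 fold change of the members was -0.05, with 34 above and 44 below 0, and that of all tested genes was 0.01. All 23 called changes were smaller than a doubling or halving, from -0.66 in MRPS5 to 0.43 in MRPL1.

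**Figure D3:**
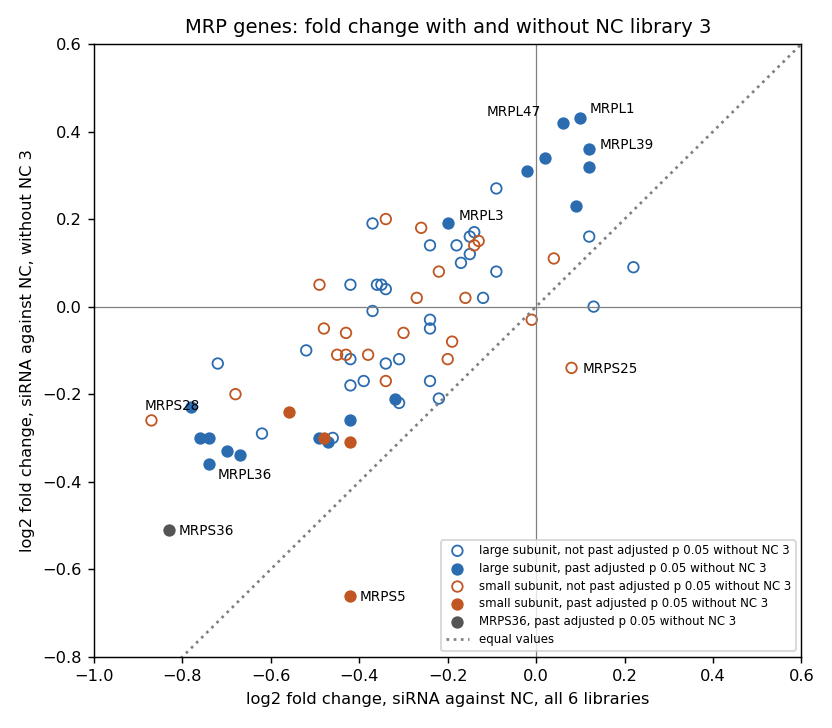
Log2 fold change of each MRP gene other than MRPL53, libraries labelled GRIK1 siRNA against NC, with all 6 libraries (x axis) and without NC library 3 (y axis); filled points passed an adjusted p of 0.05 without NC 3 and colours give the subunit. Most points lie above the dotted line of equal values, and MRPS5 and MRPS25 lie below it.

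The 8 members that rose without NC library 3 all encode proteins of the large subunit. They made up 15.7% of the 51 large-subunit genes, a share near the 16.9% of all tested genes called higher. Of the 29 with bacterial counterparts 7 rose (24.1%), and of the 22 found only in mitochondria 1 rose (4.55%), a difference that was not tested. MRPL47 (ENSG00000136522, chr3:179588285-179604649, minus strand, GRCh38), a protein near the exit of the peptide tunnel, had 31.8 and 36 CPM in NC libraries 1 and 2 and 43.4, 46.2 and 45.9 CPM in the libraries labelled GRIK1 siRNA (log2 fold change 0.42, SE 0.08, edgeR adjusted p = 0.000823). MRPL1 (ENSG00000169288, chr4:77862830-77952785, plus strand), part of the stalk beside the tRNA exit site, had 23.2 and 23.8 CPM against 28.4, 33.3 and 32.7 CPM (0.43, SE 0.10, adjusted p = 0.00277). MRPL39, found only in mitochondria, had 19.1 and 20.3 CPM against 23.5, 25 and 27 CPM (0.36, SE 0.10, adjusted p = 0.012). In these 3 genes each siRNA library lay above NC libraries 1 and 2, but NC library 3, at 62.1, 41 and 30.2 CPM, lay above them all.

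MRPL22 (ENSG00000082515, chr5:154941073-154969411, plus strand), whose bacterial counterpart lines the peptide tunnel, had 30.4 and 33.4 CPM against 36.1, 42 and 41.5 CPM (0.32, SE 0.09, adjusted p = 0.0102). MRPL21 had 34.7 and 40.4 CPM against 49.3, 46.8 and 46.6 CPM (0.34, SE 0.08, adjusted p = 0.00375). MRPL17 had 43.2 and 43.5 CPM against 56.4, 50.2 and 54.2 CPM (0.31, SE 0.08, adjusted p = 0.00409). The lowest siRNA library exceeded the higher of NC libraries 1 and 2 in each of them. Smaller rises were found in MRPL18, from 69.6 and 72.6 to between 81.4 and 85.1 CPM (0.23, SE 0.06, adjusted p = 0.00527), and in MRPL3, from 112 and 110.2 to between 125 and 129.6 CPM (0.19, SE 0.05, adjusted p = 0.00781). The latter are among the 5 most abundant members, and their errors were the smallest of the 8. With all 6 libraries, the values of these 8 genes were between -0.20 and 0.12, and none passed the test.

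The 15 members that fell without NC library 3 comprised 10 of the large subunit, 4 of the small subunit and MRPS36. These were 19.6% of the 51 large-subunit and 15.4% of the 26 small-subunit genes, near the 18.3% of all tested genes called lower. Of the small-subunit genes 0 of 26 rose, against 16.9% of all tested genes, and whether the subunits differ was not tested. The largest fall was that of MRPS5 (ENSG00000144029, chr2:95085369-95122006, minus strand), a small-subunit protein of the mRNA entry site, with 29.1 and 31.4 CPM in NC libraries 1 and 2 and 21.4, 18.2 and 17.9 CPM in the libraries labelled GRIK1 siRNA (-0.66, SE 0.10, edgeR adjusted p = 9.36e-05). MRPS5 also differed from the other called members in NC library 3, where it was lowest of the 6 at 16.3 CPM, so that with all 6 libraries its groups overlapped (-0.42, SE 0.25, adjusted p = 0.317). MRPS36 (ENSG00000134056, chr5:69217760-69230158, plus strand) fell by 0.51 on the log2 scale (SE 0.11, adjusted p = 0.00182), and its siRNA libraries lay below all 3 NC libraries.

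The other small-subunit genes that fell were MRPS6, MRPS16 and MRPS27. MRPS6 had 63.1 and 60.8 CPM against 48.6, 52 and 49.1 CPM (-0.31, SE 0.07, adjusted p = 0.00173). MRPS16 had 94.9 and 95 CPM against 83.9, 80.2 and 77.5 CPM (-0.24, SE 0.06, adjusted p = 0.00417). MRPS27, an RNA-binding protein of the pentatricopeptide repeat family found only in mitochondria, had 86.2 and 77.9 CPM against 67.3, 65.6 and 67.2 CPM (-0.30, SE 0.06, adjusted p = 0.00132). In each of the 3 genes NC library 3 was higher still, at 76.3, 166 and 114 CPM, and the groups did not overlap with all 6 libraries.

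Among the large-subunit genes that fell, 4 occur only in mitochondria (18.2% of 22) and 6 have bacterial counterparts (20.7% of 29), shares near the 18.3% of all tested genes. MRPL44, which has the fold of an RNase III enzyme, had 32.7 and 34.5 CPM against 27.6, 25.9 and 25.9 CPM (-0.34, SE 0.09, adjusted p = 0.00595). MRPL37 had 94.1 and 97.6 CPM against 82.6, 76.6 and 81 CPM (-0.26, SE 0.06, adjusted p = 0.00226). MRPL42 and MRPL41, the member with the highest FPKM, fell by 0.30 (SE 0.07) and 0.31 (SE 0.09) on the log2 scale. These genes also had every siRNA library below every NC library. Of those with bacterial counterparts, MRPL36 (ENSG00000171421, chr5:1798385-1801366, minus strand), with 24.3 and 20.2 CPM against 18.4, 15.7 and 17.9 CPM (-0.36, SE 0.11, adjusted p = 0.0208), fell most, followed by MRPL35 (-0.33, SE 0.09), MRPL15 and MRPL33 (each -0.30), MRPL30 (-0.23) and MRPL10 (-0.21, SE 0.08, adjusted p = 0.0491). MRPL10 was near the threshold, and it was called in 0 of 8 further fits that changed the scaling, the tool or the libraries besides leaving out NC library 3. MRPL30 was called in 2 of these 8 fits and MRPL33 in 4. By contrast MRPL1, MRPL17, MRPL37, MRPL47, MRPS5, MRPS6, MRPS16 and MRPS27 were called in all 8. In 2 of these fits only 1 NC library was left, and its spread was assumed to be that of the other group.

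**Figure D4:**
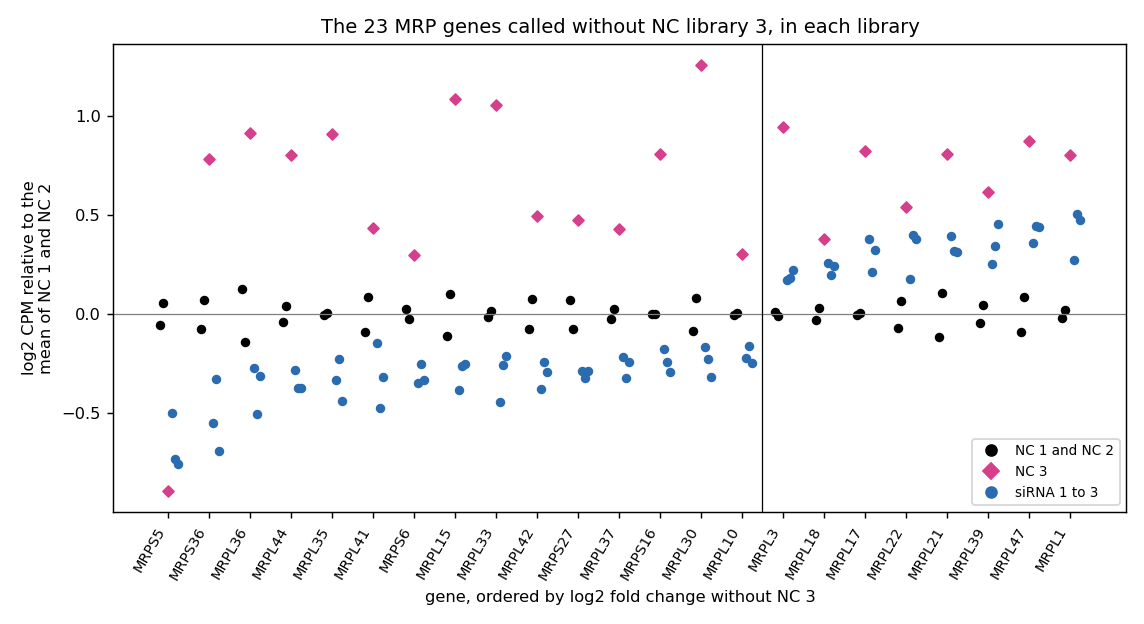
The 23 MRP genes called without NC library 3, with the log2 ratio of CPM to the mean of NC libraries 1 and 2 (y axis) in each library; black points are NC 1 and 2, diamonds NC 3 and blue points the 3 libraries labelled GRIK1 siRNA, and the vertical line parts falls from rises. NC 3 lies above the other NC libraries in every gene but MRPS5, where it is lowest.

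Several members lay just outside the threshold without NC library 3. MRPL4 had 30.1 and 24.7 CPM in NC libraries 1 and 2 and 24.7, 20.1 and 22.2 CPM in the libraries labelled GRIK1 siRNA (-0.30, SE 0.11, edgeR adjusted p = 0.0501), and MRPL54 had 22 and 24.8 CPM against 21.4, 17.3 and 18.7 CPM (-0.29, SE 0.11, adjusted p = 0.0574). The small-subunit genes MRPS15 and MRPS10 had log2 fold changes of 0.15 (SE 0.07, adjusted p = 0.0795) and 0.18 (SE 0.08, adjusted p = 0.0798), so values above 0 were not limited to the large subunit. Of the genes highest in NC library 3, MRPS23 had 40, 44.6 and 99.8 CPM in the NC libraries and 42.7, 45.9 and 42.5 CPM in the others, and MRPS7 had 26.5, 32.4 and 69.3 CPM against 36, 33 and 32.4 CPM. In both, the siRNA libraries lay among or near NC libraries 1 and 2. MRPS25 showed the opposite in NC library 3, with 51.9, 54.3 and 31.3 CPM against 49.7, 45.5 and 49.7 CPM (-0.14, SE 0.07, adjusted p = 0.161).

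Members with known special roles were read by the same fits. The stalk that recruits translation factors holds MRPL10, MRPL11 and MRPL12. MRPL11 had 56.8, 58.8 and 115 CPM in the NC libraries and 58.3, 54 and 49.1 CPM in the libraries labelled GRIK1 siRNA (log2 fold change without NC library 3 -0.10, SE 0.08, edgeR adjusted p = 0.323). MRPL12 had 19.6, 18.7 and 27.8 CPM against 19.7, 17.8 and 18.5 CPM (-0.03, SE 0.10), and 68.2% of its exonic bases are shared with the same-strand gene AC139530.2, so its counts are uncertain. In both genes NC library 3 lay above the other 5 libraries, which overlapped. MRPS12, of the decoding centre, had 18.4, 19.2 and 33.6 CPM against 19, 14.3 and 19.1 CPM (-0.11, SE 0.13). MRPL45, which holds the ribosome to the inner membrane, had 39.9, 41.6 and 102 CPM against 36, 39.4 and 36.2 CPM (-0.13, SE 0.08), and its pseudogene MRPL45P2 had 311 counts in all, 8.55% of those of MRPL45. MRPL58, a peptidyl-tRNA hydrolase related to release factors that rescues stalled ribosomes, had 18, 21.5 and 33.7 CPM against 21.8, 20.5 and 23.6 CPM (0.16, SE 0.11). None of these genes other than MRPL10 passed the test without NC library 3.

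The paralogs MRPS18A, MRPS18B and MRPS18C, which sit at different places of the ribosome, did not pass the test in either fit. MRPS18A, a large-subunit protein despite its name, had 26.5, 26.1 and 42.2 CPM against 28.9, 29.9 and 26.8 CPM. MRPS18B had 39.2, 41.4 and 56.2 CPM against 43.3, 39.5 and 39.9 CPM, and MRPS18C had 17.8, 18.4 and 33.9 CPM against 15.2, 19.5 and 17.6 CPM. Their log2 fold changes without NC library 3 were 0.12 (SE 0.09), 0.02 (SE 0.08) and -0.06 (SE 0.12). Exonic bases of MRPS18A (47%) and MRPS18C (40.2%) are shared with RSPH9 and ABRAXAS1 on the opposite strand, and whether the counting used strand is not given in the sources used here. MRPS30, also a large-subunit protein despite its name, had 42, 55 and 71.6 CPM against 41.4, 45.2 and 46.4 CPM (-0.13, SE 0.10). Of the abundant members, MRPL51 had 85, 88.3 and 164 CPM against 85.6, 88.4 and 93 CPM (0.04, SE 0.06), and MRPS35 had 78, 84.5 and 133 CPM against 87, 91.3 and 89.6 CPM (0.14, SE 0.06, adjusted p = 0.0849).

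In GENCODE 29, 19 members have a protein-coding gene that starts within 1000 bases on the opposite strand. MRPL47 rose by 0.42 without NC library 3, whereas NDUFB5, a complex I subunit that starts 36 bases away, had a log2 fold change of 0.03 (adjusted p = 0.69). MRPL36 fell by 0.36 on the log2 scale, and NDUFS6, another complex I subunit 34 bases away, was at 0.02 (adjusted p = 0.848). This distance is from the outermost start of MRPL36 in GENCODE 29, which lies upstream of the RefSeq start of the promoter printed above, so that window does not reach NDUFS6. MRPL18 rose by 0.23, and TCP1, a chaperonin subunit, was at -0.05 (adjusted p = 0.419). Among these pairs, only in that of MRPL21 and IGHMBP2, 7 bases apart, were both genes called, at 0.34 and 0.38 (adjusted p = 0.00375 and 0.00962). MRPS11 and MRPL46 are such neighbours of each other, 34 bases apart, and were at 0.08 and 0.05 without a call. The differences within these pairs were not tested.

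The genes that work with the mitochondrial ribosome were read from lists by role. With all 6 libraries, 0 genes of the lists of further subunits, assembly factors, translation factors, mitochondrial rRNAs and mRNAs, OXPHOS subunits and cytosolic ribosomal proteins passed the test. Without NC library 3, the counts of each list stand against 16.9% of all tested genes called higher and 18.3% called lower. Of 5 further subunits without an MRP name, GADD45GIP1 rose without NC library 3 (0.39, SE 0.09, adjusted p = 0.00351, against 0.06 and adjusted p = 0.9 with all 6 libraries), and the others did not pass the test. DAP3, a small-subunit GTP-binding protein, had 104, 109 and 144 CPM in the NC libraries and 98.4, 105 and 102 CPM in the libraries labelled GRIK1 siRNA. CHCHD1 had 39.6, 39.2 and 74.4 CPM against 35.4, 36 and 35.4 CPM. Thus DAP3 and CHCHD1 were also highest in NC library 3. Of 24 assembly factors, 23 were tested, 1 rose and 5 fell without NC library 3 (4.35% and 21.7% of those tested), among them the GTPase NOA1 (-0.41, SE 0.11), the rRNA methyltransferase MRM1 (-0.74, SE 0.22) and TFB1M (-0.37, SE 0.12), which methylates the small rRNA. Of 16 translation factors, 0 rose and 5 fell (31.2%). TUFM, the elongation factor that brings aminoacyl-tRNA, had 152, 153 and 187 CPM against 124, 113 and 113 CPM (-0.39, SE 0.05, adjusted p = 2.77e-05), and the initiation factor MTIF2 fell by 0.20 (SE 0.07).

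Of 11 genes for mitochondrial transcription and its regulators, PPARGC1A alone was called with all 6 libraries. This coactivator of nuclear genes for mitochondrial proteins had 12.8, 13.3 and 12.3 CPM in the NC libraries and 4.87, 5.17 and 6.3 CPM in the libraries labelled GRIK1 siRNA (log2 fold change -1.23, SE 0.16, edgeR adjusted p = 0.0261), and its value without NC library 3 was -1.26 (SE 0.15). Its NC libraries lay close together, NC library 3 included. When any library other than NC library 3 was left out, 0 genes passed the test, so this call too needed all of them or the fit without NC library 3. Without NC library 3, the related coactivator PPRC1 rose (0.41, SE 0.07), and TFAM, which packages and transcribes mitochondrial DNA, and MYC fell (-0.31, SE 0.08, and -0.55, SE 0.07). NRF1 and GABPA, whose motifs were searched above, were at -0.01 (SE 0.10) and -0.08 (SE 0.07) without a call.

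The mRNAs of the mitochondrial genome had another pattern across the libraries. These 13 mRNAs made up 2.92% of NC library 3 and 4% to 4.54% of the others by count, and NC library 3 was the highest library in only 1 of them. Without NC library 3, 9 of the 13 fell and 0 rose, with a median of -0.18, and MT-CYB had the largest fall named here (-0.34, SE 0.04, adjusted p = 9.95e-06). Of the rRNAs that the MRP proteins bind, MT-RNR2 of the large subunit fell (-0.18, SE 0.06, adjusted p = 0.0202) without NC library 3, and MT-RNR1 of the small subunit did not pass the test (-0.04, SE 0.11). Like most members, MT-RNR2 was highest in NC library 3, at 12954 CPM against 7804 to 10187 CPM, and both rRNAs made up 1.24% of that library and 0.889% to 1.14% of the others by count. How far the library preparation removed rRNA is not given in the sources used here.

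Among other nuclear gene groups, the 75 nuclear subunits of oxidative phosphorylation (OXPHOS) had medians near those of the members. Their median log2 fold change was -0.34 in the fit to 6 libraries and -0.06 after NC library 3 was left out, with 8 called higher and 14 called lower in the latter fit (10.7% and 18.7% of the list, against 16.9% and 18.3% of all tested genes), and they made up 1.01% of NC library 3 and 0.634% to 0.681% of the other libraries by count. The 86 cytosolic ribosomal protein genes, of which 84 were tested, made up 9.43% of NC library 3 and 4.83% to 5.54% of the others. Their median was -0.58 in the fit to 6 libraries and -0.19 once NC library 3 was left out, where 59 of the 84 fell and 0 rose. The medians of the 3 groups share the same libraries and are given side by side without a test of their difference.

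**Figure D5:**
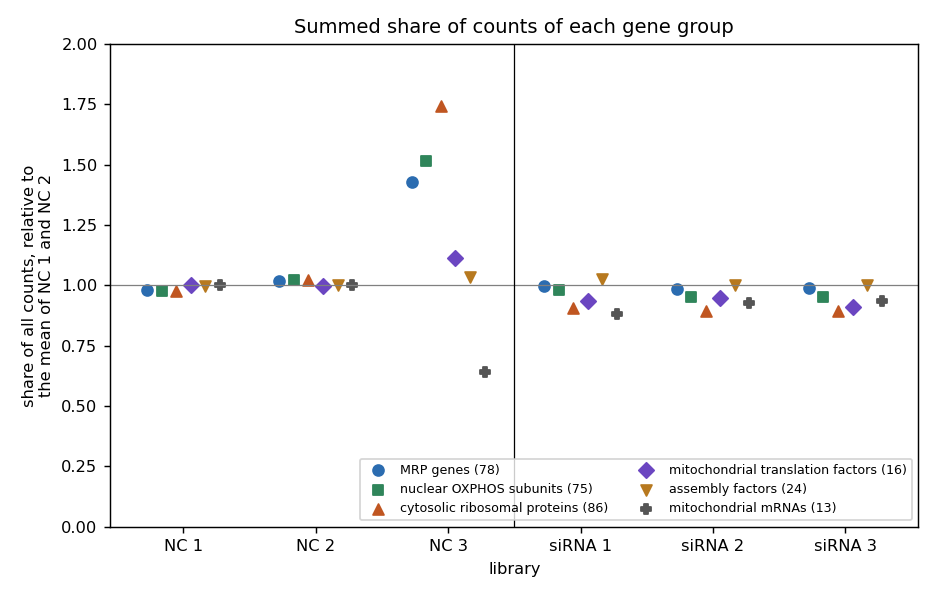
Share of all counts taken by 6 gene groups in each library, divided by the mean share in NC libraries 1 and 2 (y axis); each symbol is a gene group, with its number of genes in the legend. In NC 3 the MRP genes (0.412% of counts), the OXPHOS subunits (1.01%) and the cytosolic ribosomal proteins (9.43%) are high and the mitochondrial mRNAs (2.92%) low, whereas the MRP share in the siRNA libraries (0.284% to 0.288%) is within that of NC 1 and NC 2.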

How the data were processed

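RNA of U87-MG cells was sequenced in 6 libraries, 3 per group, grouped by sample title. The authors deposited whole-number counts per gene without normalization for 61806 genes, and FPKM values that the authors computed from these counts. The deposited FPKM equalled the count divided by exonic size and by total count for 100% of values, within a tolerance of 0.0051. The exonic size of each gene was also deposited by the authors. The submitters' processing notes name cutadapt 1.9.1, HISAT2, HTSeq and GRCh38. The strand setting and the annotation release are not given in the sources used here. There were 0 value columns without a sample and 0 rows that name no gene.

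Genes with a mean FPKM of at least 0.5 (15870, all 78 members among them) were tested with edgeR 4.0.16 (R 4.3.3), with TMM scaling, the quasi-likelihood test and Benjamini-Hochberg adjustment over all tested genes, with and without NC library 3. CPM are counts relative to the TMM-scaled library size. DESeq2 1.42.0, other scalings, other filters, the replicate number as a block and leaving out each library were alternatives, and combinations with leaving out NC library 3 were added after seeing the data. Overlaps, principal transcripts and neighbours came from GENCODE 29 and promoters from RefSeq. The members and lists were chosen with earlier results of these data known. Members were named by the 5 largest and 5 smallest log2 fold changes, the 5 highest and 3 lowest mean FPKM and known roles, which gave 28 genes. The 12 further genes called without NC library 3 and the genes named for their ratio in NC library 3, their nearness to the threshold or a neighbour were chosen after their values were seen. In the lists, at most the 3 largest changes by absolute size were named, and MYC, NRF1, GABPA and GADD45GIP1 were added after their values were seen. The fits were tested on simulated data, and no result of that is given or used here. Counts limit the precision of low members, and intervals cover counting error only.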

Additional observations from a re-analysis of the deposited data

How the results depend on the processing

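Leaving out NC library 3 changed the results most. Over the fits that left out each library in turn, the members called higher ranged from 0 to 8, those called lower from 0 to 15, all genes called from 0 to 5591 and the median of the members from -0.43 to -0.05 (8, 15, 5591 and -0.05 are the values without NC library 3, and each other fit called 0 genes). With all 6 libraries, 0 members and 490 genes were called. DESeq2 called 1684 genes and no filter 1403, each with 1 member lower, MRPS36 (adjusted p 0.031 and 0.0224). With the replicate number as a block, 0 genes and 0 members were called (3324 genes had an unadjusted p under 0.05) and the median was -0.27. The same-numbered libraries correlated at -0.05, 0.03 and -0.03 in their deviations from the group means, so no pairing by number was seen. With 3 libraries per group, and NC library 3 apart from the other NC libraries, these values cannot exclude a pairing. Scaling by total counts moved the median of all genes to 0.07 and that of the members to -0.22.

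Of the 78 members, 26 changed sign when NC library 3 was left out. The signs below cover the 40 members followed under the alternatives, of which MRPL53 was not tested with a mean FPKM of at least 1. MRPL17 was at -0.02 with all 6 libraries, at 0.09 with total counts, at 0.0055 with a mean FPKM of at least 1 and at 0.03 with the replicate block, and MRPL21 went from 0.02 to -0.02 with no filter. Leaving out libraries gave the following lowest and highest values: MRPL1 -0.04 to 0.43, MRPL17 -0.16 to 0.31, MRPL21 -0.16 to 0.34, MRPL3 -0.36 to 0.19, MRPL38 -0.0049 to 0.28, MRPL39 -0.0049 to 0.36, MRPL46 -0.59 to 0.05, MRPL47 -0.12 to 0.42, MRPL51 -0.50 to 0.04, MRPL58 -0.33 to 0.16, MRPS18A -0.27 to 0.12, MRPS18B -0.25 to 0.02 and MRPS35 -0.28 to 0.14. The cause of these changes was not tested. Without NC library 3, a further change of tool or scaling kept 19 of the 23 called members (DESeq2), 22 (median-of-ratios scaling) and 21 (total counts). In the same order, these fits called 19, 22 and 24 of the 78 members and 26.5%, 35.2% and 34.8% of all tested genes. That share was 35.2% in the fit that left out only NC library 3. Leaving out a further library besides it gave between 4 and 11 members called higher and between 7 and 17 called lower (4 higher without NC library 1, 7 lower without NC library 2, fits in which the lone NC library is assumed to vary like the other group), and all 23 members kept their direction in each of these 8 fits. These combinations were chosen after seeing the data. In the fits that left out an siRNA library besides NC library 3, 19 to 28 of the 78 members were called. The share of all tested genes called in the same fits was 28.6% to 37.8%, and both were highest without siRNA library 1.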
